A study of Mus musculus with 4 samples.

Results

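The 4 Hox clusters of the mouse were examined for binding of p63, a master regulator of stratified epithelia such as the skin, in newborn (postnatal day 0) dorsal epidermis. The members were the 39 protein-coding genes named Hoxa, Hoxb, Hoxc or Hoxd with a number, of 21887 protein-coding genes on the assembled chromosomes, and all p63 peaks whose summit lay inside a cluster or within 50 kb of its outer genes. This rule took 10 of 14593 peaks of the library labelled p63 alphaKO (alphaKO) and 7 of 10616 peaks of the wild-type library (WT), which form 12 distinct sites. Both libraries came from chromatin immunoprecipitation followed by sequencing (ChIP-seq) with the same p63 antibody, with 1 ChIP library per genotype; the matching input libraries were not analysed here. The sources used here do not give the structure of the alphaKO allele, the strain, the sex or how many animals entered a library. Because each genotype had 1 library, differences between genotypes could not be set against a replicate spread and were not tested, and a missing peak means only that no site passed the peak caller's threshold in that list.

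Hox genes encode homeodomain transcription factors that give cells their position along the body axis. Within a cluster the genes lie in the order of their paralogue numbers, low numbers acting towards the head and high numbers towards the tail and the ends of the limbs. In skin, Hox expression differs between body sites and persists after birth. Hox clusters are classical targets of Polycomb repression, and their proteins bind DNA together with cofactors of the Pbx and Meis families.

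The median fold of the Hox peaks was below that of the whole list in both libraries, with single sites above it. Fold enrichment, the pileup at a summit divided by the peak caller's local background, is the authors' value for each peak within its own list. It lay between 7.55 and 24.8 in alphaKO, with a median of 10.9, and between 4.78 and 15.1 in WT, with a median of 7.05. The medians over the whole lists were 15.5 in alphaKO and 8.44 in WT. In alphaKO 4 of the 10 Hox peaks and in WT 1 of the 7 exceeded the median of their list, and 0 peaks in either list reached its strongest 20% by fold, which began at 31.4 in alphaKO and 16.3 in WT. All were nonetheless far from the limit of the lists: the smallest −log10 q was 33.4 in alphaKO and 16.3 in WT, against 1.36 and 1.31 over the whole alphaKO and WT lists.

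**Figure D1:**
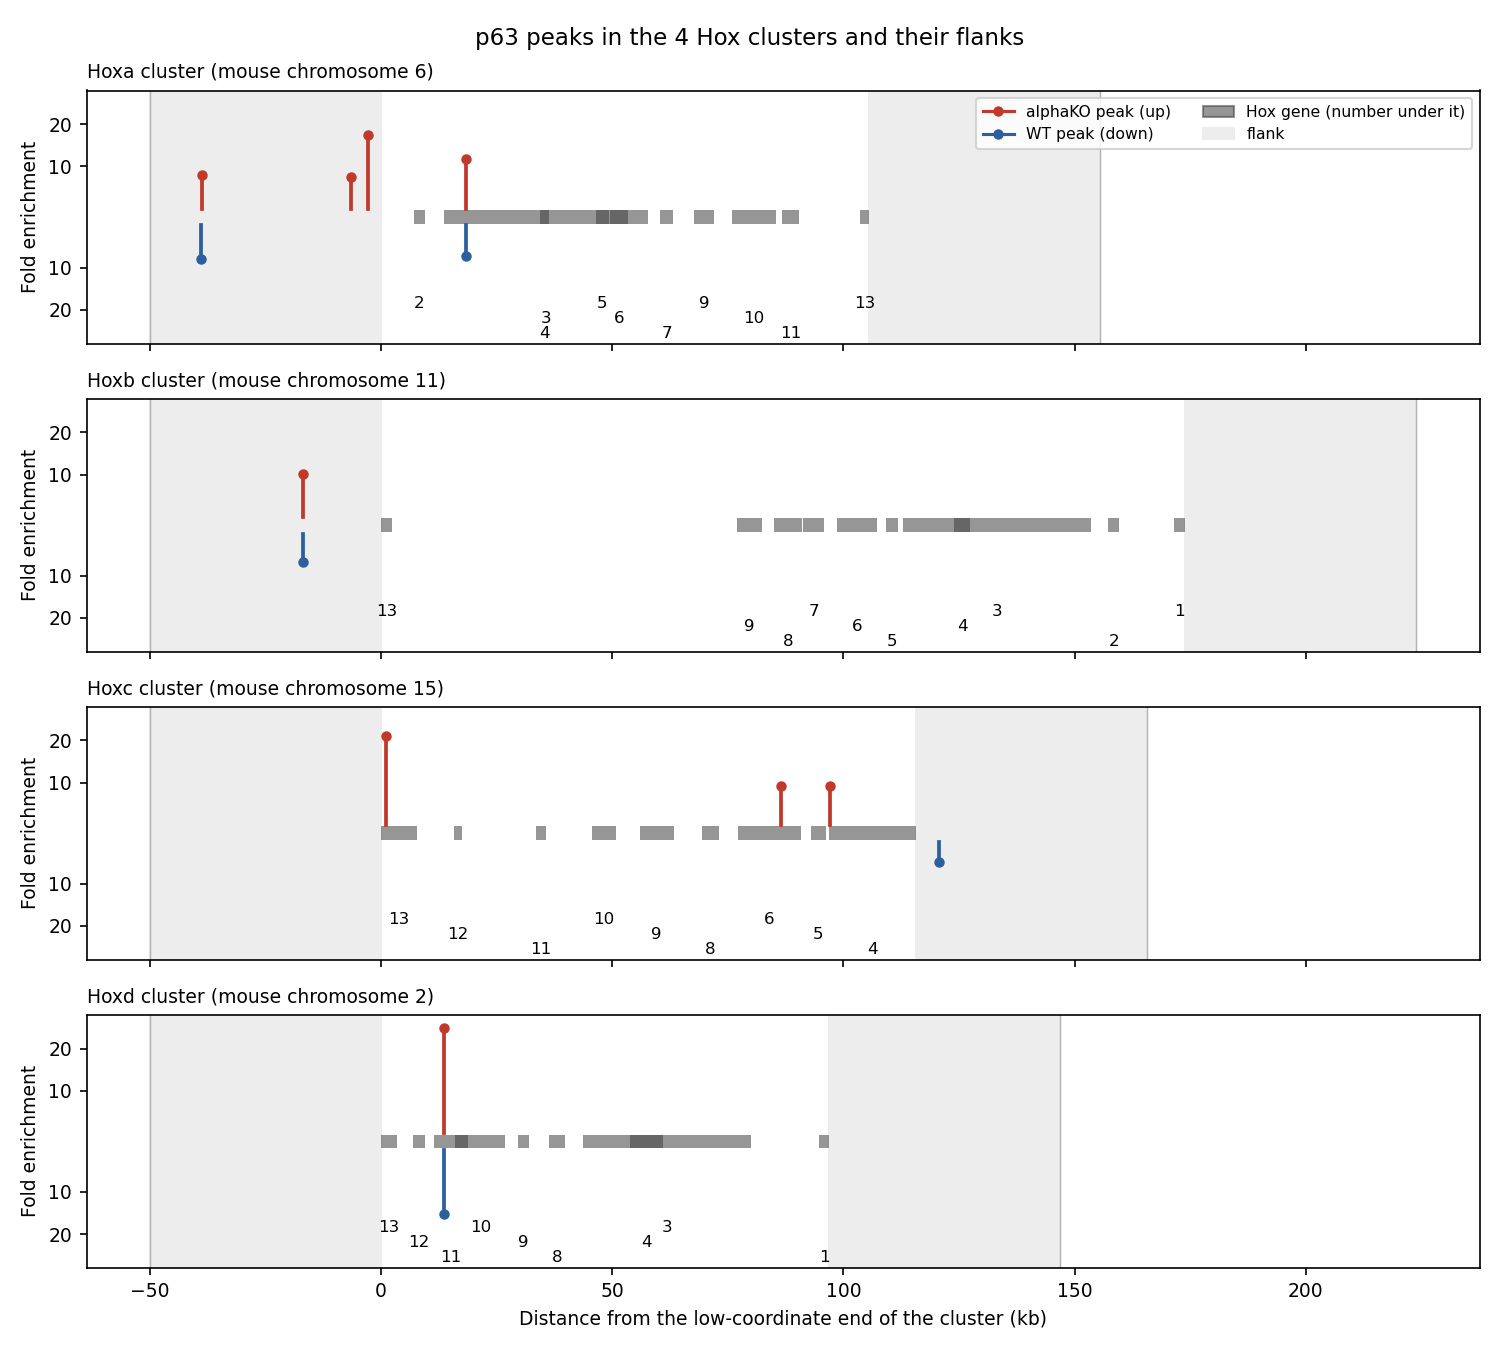
Fold enrichment of the p63 peaks described here (alphaKO drawn upwards in red, WT downwards in blue) against distance in kb from the low-coordinate end of each Hox cluster; dark boxes are the Hox genes described here with their numbers and pale bands are the 50 kb flanks. Peaks stand in Hoxa3 and the flank at the low-coordinate end of the Hoxa cluster, in Hoxc13, Hoxc6 and Hoxc4, and in Hoxd11, and the inside of the Hoxb cluster has 0 peaks in either library.

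At 5 of the 12 sites both lists had a peak, 5 were listed in alphaKO alone and 2 in WT alone. A peak was taken to have a partner where it overlapped a peak of the other list by 1 bp or more. On this definition 50.0% of the alphaKO peaks (95% Wilson interval 23.7 to 76.3) had a WT partner, where 48.4% of the whole alphaKO list did. For WT, 71.4% of the peaks (35.9 to 91.8) had an alphaKO partner, where 66.6% of the whole WT list did. Both shares are near those of the whole lists and are not a result about Hox clusters; the intervals cover counting error only. The alphaKO list is the longer one. With it reduced by q to the length of the WT list, the windows held 7 alphaKO peaks beside the unchanged 7 WT peaks. The higher number of peaks in alphaKO was thus not seen at equal list lengths.

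**Figure D2:**
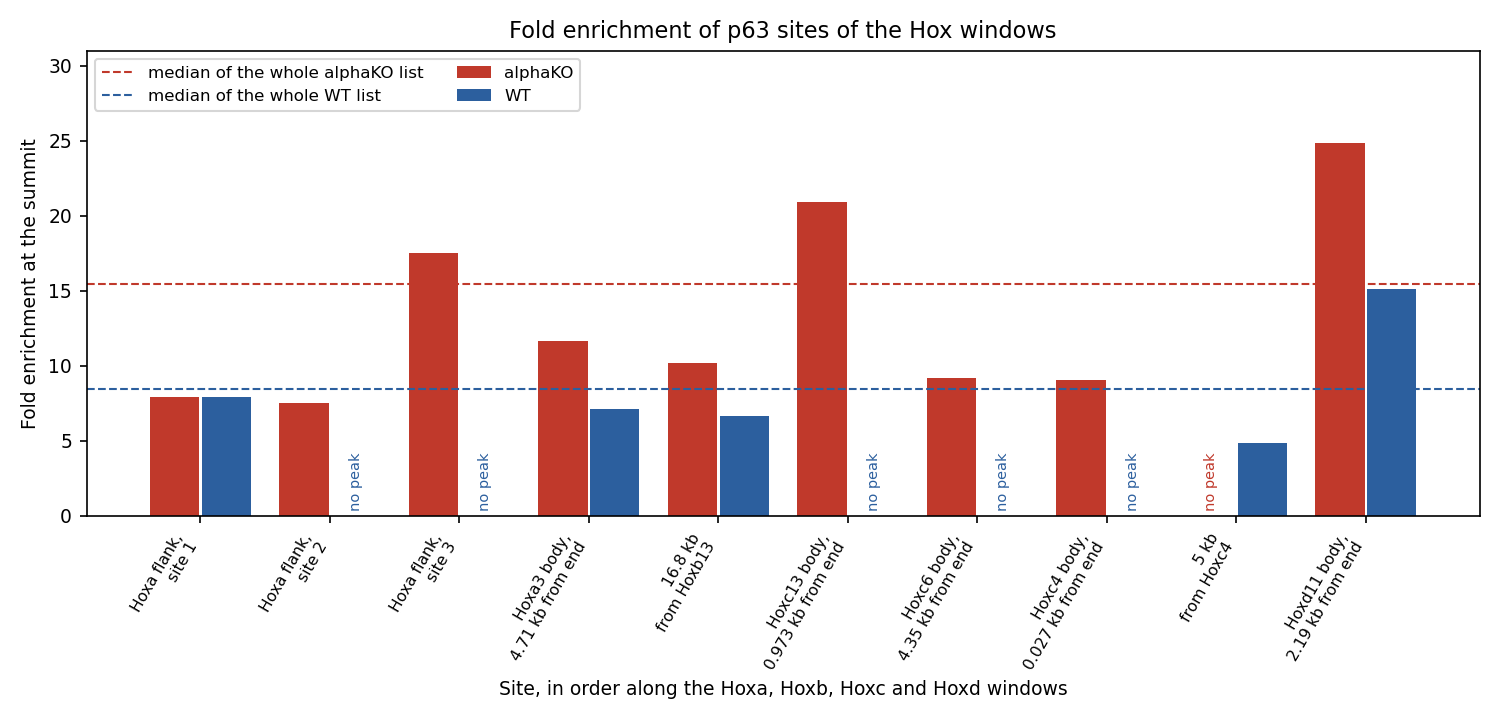
Fold enrichment at 10 of the 12 sites in alphaKO (red, left) and WT (blue, right), with the median of each whole list as a dashed line; "no peak" means that the list has none there. The site in Hoxd11 is the highest in both libraries, and the site near Hoxc4 listed in WT alone has the lowest WT value drawn, 4.88.

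The Hoxd cluster (chromosome 2, 74668225 to 74765142, mm10), whose genes of high number pattern the limbs and the genital bud, carried a single site, and it was the strongest Hox site of both libraries. The site lay in Hoxd11, a gene that acts with Hoxa11 in forming the forearm skeleton. In alphaKO the peak (chromosome 2, 74681528 to 74681935) had a pileup of 178 fragments, a fold of 24.8 and a −log10 q of 184.2. In WT the peak (74681619 to 74681910) had a pileup of 107, a fold of 15.1 and a −log10 q of 87.9. The 2 summits lay 2 bp apart, and the recovered local background was nearly equal, at 6.20 in alphaKO and 6.14 in WT. By fold it stood at percentile 71.6 of the alphaKO list and at percentile 77.4 of the WT list. The same peak lay 2.53 kb from Hoxd10 and 4.04 kb from Hoxd12 in both lists, and 10.1 kb from Hoxd13, just outside the 10 kb used below to count a gene. Hoxd9, Hoxd8, Hoxd3, Hoxd4 and Hoxd1 lay between 16.0 and 81.2 kb from the summit. Evx2, a homeobox gene beside Hoxd13, had its nearest summit 20.2 kb away in both lists.

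RefSeq gives Hoxd11 a pair of transcription start sites on the plus strand, and the summits fell between them, 2187 bp (alphaKO) and 2185 bp (WT) downstream of the one at 74679558 and 578 bp (alphaKO) and 580 bp (WT) upstream of the one at 74682323. The bases before both start sites are shown because they are the promoters closest to the strongest Hox site; no genome sequence was used, so the bases under the peak itself are not shown. They come from RefSeq (GRCm38.p6, plus strand, 250 bases each, chr2:74679308-74679557 and chr2:74682073-74682322). Capitals mark every match to a motif of CNNG, any 6 bases and CNNG again, a loose form of the paired half-sites that p53 family proteins recognise; the letters read the same on both strands, and overlapping matches run together.
Hoxd11 start at 74679558: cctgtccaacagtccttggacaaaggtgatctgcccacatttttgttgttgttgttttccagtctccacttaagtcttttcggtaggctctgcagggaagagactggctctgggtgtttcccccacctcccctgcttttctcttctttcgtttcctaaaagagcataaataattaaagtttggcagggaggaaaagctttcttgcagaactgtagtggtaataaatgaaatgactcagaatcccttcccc
Hoxd11 start at 74682323: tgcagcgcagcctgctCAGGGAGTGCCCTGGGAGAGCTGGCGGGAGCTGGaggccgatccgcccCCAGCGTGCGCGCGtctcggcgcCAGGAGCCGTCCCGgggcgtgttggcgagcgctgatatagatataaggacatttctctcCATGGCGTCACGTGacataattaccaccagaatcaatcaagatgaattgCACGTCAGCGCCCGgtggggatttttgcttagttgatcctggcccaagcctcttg
The upstream window held 0 matches and the downstream one 7. Over all 32851 RefSeq promoters of the same length, 63.5% held at least 1 match, so the letters are common. Of 24 promoters listed for 22 Hox genes, 16 (66.7%) held at least 1. The stricter motif of CATG, any 6 bases and CATG, also the same on both strands and a special case of the loose form, was in 0 of the 24 and in 0.49% of all promoters. In no case did a peak of either list overlap one of these 24 promoter windows, taken as 250 bases before to 50 after the start. The share of all promoters that a peak overlaps is not given here, so this count says nothing particular of Hox genes. The 22 genes do not include Hoxc13, Hoxc6 or Hoxc5, so their promoters were not examined.

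The Hoxa cluster, on chromosome 6, had 5 alphaKO and 4 WT peaks in its window. Those described here lay within Hoxa3 or in the flank at the low-coordinate end of the cluster. Hoxa3, which is needed for the thymus and the parathyroid, had a shared site 4.71 kb inside its boundary of lower coordinate, which is also inside the noncoding gene Gm15050. The alphaKO peak (52173622 to 52173943) had a pileup of 87 and a fold of 11.6. The WT peak (52173596 to 52173913) had a pileup of 110 and a fold of 7.14. The order of the libraries was thus opposite for pileup and for fold: the recovered local background was 6.56 in alphaKO and 14.5 in WT, the highest of the WT Hox peaks. Hoxa2, which patterns the pharyngeal arches, had no summit in its body in either list but had summits within 10 kb in both.

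In the flank, a pair of peaks was listed in alphaKO alone. The stronger one (52152247 to 52152639) had a pileup of 127, a fold of 17.5 and a −log10 q of 112.4, above the median of the alphaKO list. The other (52148675 to 52148994) had a pileup of 63 and the lowest fold of the alphaKO Hox peaks, 7.55. Neither met a WT peak. Further out a shared site lay close to the noncoding gene Halr1, with a fold of 7.90 in alphaKO (52115998 to 52116705) and 7.92 in WT (52115942 to 52116704). It was the broadest of the Hox peaks, 708 bp wide in alphaKO and 763 bp in WT, and its summits were 127 bp apart, the largest distance among the shared sites. From the Hoxa3 site to the far edge of the window, 137 kb in both libraries, there was no summit; Hoxa4, Hoxa5, Hoxa6, Hoxa7, Hoxa9, Hoxa10, Hoxa11 and Hoxa13 had their nearest summit between 15.9 and 85.1 kb away in both lists.

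**Figure D3:**
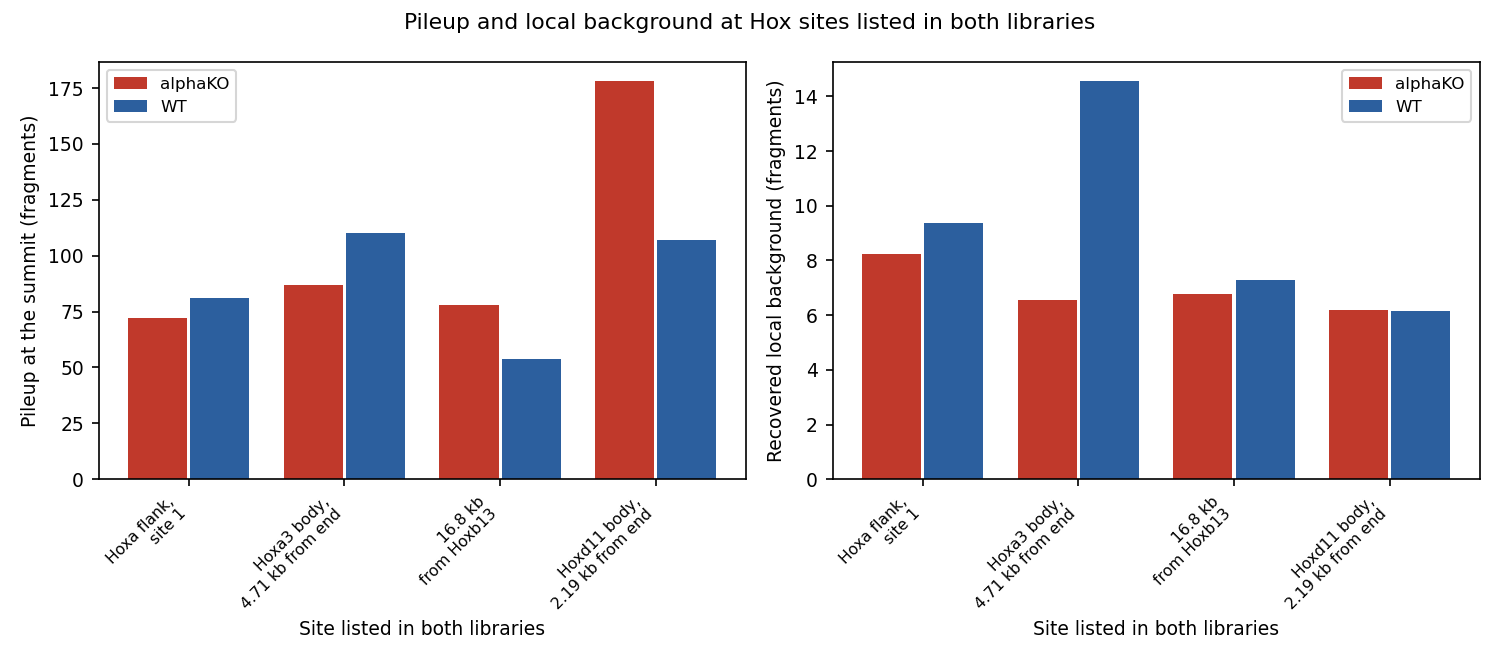
Pileup at the summit (left panel) and recovered local background (right panel), in fragments, for 4 of the 5 Hox sites listed in both libraries, with alphaKO in red and WT in blue. Pileup is higher in alphaKO at the sites near Hoxb13 and in Hoxd11 and higher in WT at the outer flank site of the Hoxa window (site 1) and in Hoxa3, and the background of the Hoxa3 site is 6.56 in alphaKO and 14.5 in WT.

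In the Hoxc cluster (chromosome 15, 102921131 to 103036856) the lists had 0 sites in common: 3 peaks were listed in alphaKO alone, all inside Hox genes, and 1 in WT alone. Over the whole lists 48.4% of alphaKO peaks and 66.6% of WT peaks had a partner. The counts of 3 and 1 are too small to set the cluster apart and were not tested. Hoxc13, which is needed for the hair shaft and the nail and is known to control hair keratin genes, had the second strongest alphaKO peak of the Hox windows (102921881 to 102922304). Its pileup was 162, its fold 20.9 and its −log10 q 155.2, and its summit lay 973 bp inside the boundary of lower coordinate. The nearest WT summit was 119.7 kb away. Hoxc6, a gene of the thoracic region, had an alphaKO peak (103007316 to 103007686) with a pileup of 93 and a fold of 9.21, 4.35 kb inside the gene. Hoxc4 had an alphaKO peak (103017955 to 103018250) with a pileup of 62 and a fold of 9.08, its summit 27 bp inside the boundary of lower coordinate and 695 bp from Hoxc5. The only promoter listed for Hoxc4 lies elsewhere in the gene, 16.3 kb from the alphaKO summit. For the sites in Hoxc6 and Hoxc4 the nearest WT summit was 34.3 and 23.7 kb away. The single WT peak (103041639 to 103041993) had a pileup of 47 and a fold of 4.88, lay 5.00 kb outside Hoxc4 in the noncoding gene Gm30528, and had no alphaKO peak within 23.4 kb. Hoxc8, Hoxc9, Hoxc10, Hoxc11 and Hoxc12 had their nearest summit 13.3 to 35.6 kb away in alphaKO and 47.6 to 103 kb away in WT. Hotair, a noncoding RNA gene between Hoxc12 and Hoxc11, had its nearest summit 22.0 kb away in alphaKO and 93.9 kb away in WT.

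The Hoxb cluster (chromosome 11, 96194316 to 96368254) is the longest, 174 kb, and had no summit inside its outer genes in either library. The single site of its window, 16.8 kb outside Hoxb13, a gene active in the tail region and in prostate, was shared. Its alphaKO peak (96177306 to 96177647) had a pileup of 78, a fold of 10.2 and a −log10 q of 51.1, and its WT peak (96177343 to 96177642) a pileup of 54, a fold of 6.65 and a −log10 q of 25.5, with summits 5 bp apart. It was closer to another gene, lying 11.3 kb from Ttll6, which encodes a tubulin-modifying enzyme. Hoxb9, Hoxb8, Hoxb7, Hoxb6, Hoxb5, Hoxb3, Hoxb4, Hoxb2 and Hoxb1 were all between 93.9 and 188 kb from the nearest summit in both lists.

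Clusters also hold microRNA genes, which repress Hox transcripts among others, and the mature forms of the miR-10 and miR-196 genes are shown because these genes are part of the clusters. Mir10a lies within Hoxb3 and Mir10b within Hoxd3 and Hoxd4, whereas the miR-196 genes lie between the listed Hox genes. Capitals mark the seed, bases 2 to 8, and the sequences are from RefSeq (GRCm38.p6).
mmu-miR-10a-5p: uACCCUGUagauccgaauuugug
mmu-miR-10b-5p: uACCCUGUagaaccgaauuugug
mmu-miR-196a-5p: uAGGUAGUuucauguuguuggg
mmu-miR-196b-5p: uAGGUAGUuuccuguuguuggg
The miR-10 pair shares 1 seed and the miR-196 pair another. The nearest summit to Mir10b, in the Hoxd cluster, was 44.3 kb away in both lists, and that to Mir10a, in the Hoxb cluster, 139.7 kb. Mir196b in the Hoxa cluster was 56.3 kb from a summit in both lists, Mir196a-1 in the Hoxb cluster 87.7 kb, and Mir196a-2 in the Hoxc cluster 34.1 kb in alphaKO and 68.4 kb in WT. Mir615, inside Hoxc5, was the closest, 3.12 kb from a summit in alphaKO and 26.85 kb in WT. None of the 6 microRNA genes of the windows held a summit in either list, and over all 1228 microRNA genes, which are very short, 0% did in alphaKO and 0.0814% in WT, so this count says nothing particular of the clusters. Of the 29 long noncoding RNA genes of the windows, 2 held a summit in alphaKO and 3 in WT, where 10.8% of all such genes did in alphaKO and 8.44% in WT.

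Among genes, a minority of the Hox family lay close to a p63 summit. A gene was counted when it contained a summit or had one less than 10 kb from either boundary. In alphaKO 10 of the 39 Hox genes (25.6%) were counted, where 30.6% of all protein-coding genes were, and in WT 7 (17.9%), where 26.4% of all genes were. The Hox shares were near or below those of all genes and were not tested against them, and neighbouring Hox genes share peaks: the 10 genes in alphaKO rest on 8 peaks and the 7 in WT on 5. In both lists 7 of 39 were counted (against 20.3% of all genes), among them Hoxa3, Hoxc4, Hoxd10, Hoxd11 and Hoxd12, although for Hoxc4 the sites differed. Hoxc5, Hoxc6 and Hoxc13 were counted in alphaKO only (3 of 39, against 10.3% of all genes), 0 were counted in WT only (against 6.01% of all genes), and 29 in neither (against 63.3%). By cluster the counts were 3 in alphaKO and 3 in WT of 11 Hoxa genes, 0 and 0 of 10 Hoxb genes, 4 and 1 of 9 Hoxc genes, and 3 and 3 of 9 Hoxd genes. By position in the clusters, they were 3 in alphaKO and 3 in WT of the 8 genes of paralogue groups 1 to 3, 3 and 1 of the 15 of groups 4 to 8, and 4 and 3 of the 16 of groups 9 to 13. Summits lay inside the body of a Hox gene for 6 of the 10 alphaKO peaks and 4 of the 7 WT peaks, where 50.1% of the whole alphaKO list and 50.9% of the whole WT list lay inside a protein-coding gene. They lay within 1 kb of a Hox gene boundary for 3 of the alphaKO peaks and 1 of the WT peaks, where 8.31% of the whole alphaKO list and 17.7% of the whole WT list lay that close to a protein-coding gene boundary, and these small counts were not tested.

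**Figure D4:**
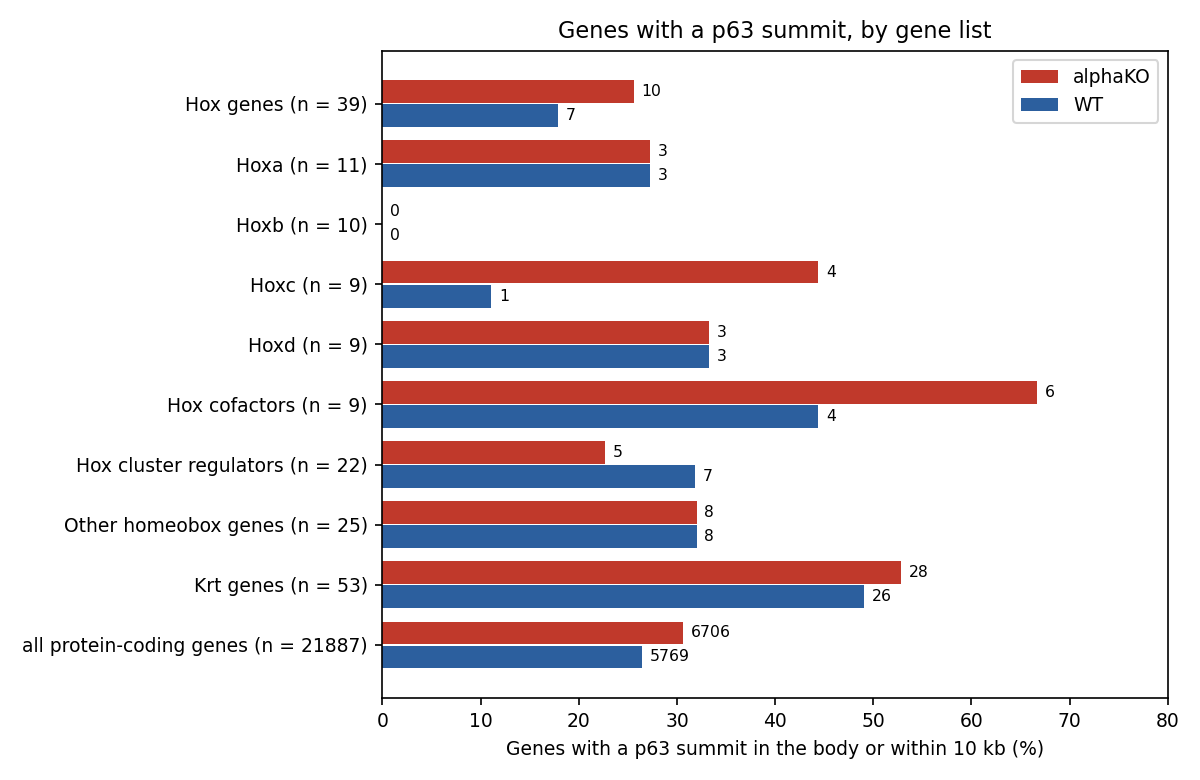
Percentage of genes with a p63 summit in the body or within 10 kb, in alphaKO (red, upper bar) and WT (blue, lower bar), for Hox genes, each cluster, related gene lists and all protein-coding genes; the number at each bar is the count of genes. Hox genes reach 25.6% in alphaKO and 17.9% in WT, beside 30.6% in alphaKO and 26.4% in WT for all genes, and the Hoxb genes are at 0.

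At the 5 shared Hox sites the alphaKO fold was 0.998 to 2.20 times the WT fold, with a median of 1.63, and was the higher one at 4 sites. Over all 7054 sites where a pair of peaks were best partners of each other, the median ratio was 1.68, with quartiles of 1.19 and 2.41, and the alphaKO fold was higher at 83.7% of sites. Of those ratios, the outer flank site of the Hoxa window stood at percentile 16.2, the site near Hoxb13 at 42.4, that in Hoxa3 at 47.3 and that in Hoxd11 at 47.9. The pileup was higher in alphaKO at 3 of the 5 Hox sites and at 74.7% of all such sites, with a median ratio of alphaKO over WT of 1.44 at the Hox sites and 1.40 at all of them. The ratios at Hox sites thus lay within the range over all shared sites. The relative depth estimated from the lowest local background of each list was larger in WT, by a factor of 1.11, provided that the caller's settings were equal.

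**Figure D5:**
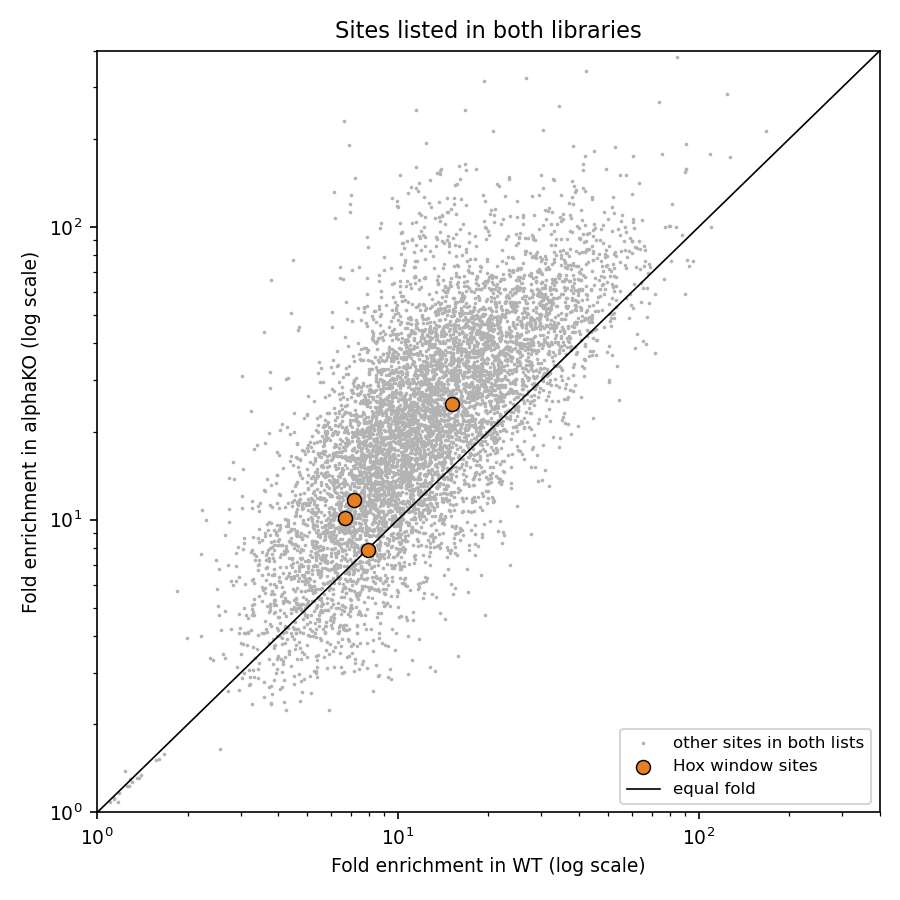
Fold enrichment in alphaKO against fold enrichment in WT, both on log scales, for sites listed in both libraries, with 4 of the 5 Hox sites as large orange points and a line of equal fold. These sites lie within the cloud of other sites, 3 above the line and 1 on it.

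Set beside other gene clusters under the same 50 kb rule, the Hox windows held 11.2 peaks per Mb in alphaKO (exact 95% Poisson interval 5.38 to 20.6) and 7.85 in WT (3.15 to 16.2), where the whole lists held 5.40 in alphaKO and 3.93 in WT. The windows of the Dlx pairs, homeobox genes of the ectoderm and its appendages, held 22.0 per Mb in alphaKO (9.50 to 43.4) and 24.8 in WT (11.3 to 47.0). Most of these peaks, 6 of 8 in alphaKO and 7 of 9 in WT, lay in the Dlx3-Dlx4 window. The Dlx1-Dlx2 window had 2 in each list and the Dlx5-Dlx6 window 0. The windows of the Irx clusters held 10.0 in alphaKO (6.42 to 14.9) and 11.3 in WT (7.43 to 16.4), and those of the keratin clusters 22.9 in alphaKO (16.6 to 30.8) and 24.99 in WT (18.4 to 33.1). The median fold was 10.9 in alphaKO and 7.05 in WT in the Hox windows, 28.7 in alphaKO and 27.8 in WT in the Dlx windows, 17.6 in alphaKO and 12.5 in WT in the Irx windows, and 21.1 in alphaKO and 8.75 in WT in the keratin windows. These are values of single libraries over windows of unequal length and gene content, and no difference between the families was tested.

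Genes that act with Hox proteins or on the clusters were counted in the same way. Of 9 cofactor genes, 6 had a summit within 10 kb in alphaKO (66.7%) and 4 in WT (44.4%), beside 30.6% of all protein-coding genes in alphaKO and 26.4% in WT; the difference was not tested. Meis2 had its strongest fold at 44.1 in alphaKO and 35.6 in WT, Pbx4 at 41.2 and 16.0, and Pknox1 at 32.7 and 9.85. Pknox2 (12.3) and Meis1 (7.97) had a summit in alphaKO only. Of 22 genes that regulate Hox clusters, 5 in alphaKO (22.7%) and 7 in WT (31.8%) had one, shares near those of all genes. Eed, a core subunit of Polycomb complex PRC2, reached 102 in alphaKO and 14.4 in WT, the histone demethylase gene Kdm6b 24.6 and 16.9, the activating methyltransferase gene Kmt2a 17.7 and 15.1, and the PRC2 partner gene Jarid2 16.9 and 10.0. Cbx7, a reader of the Polycomb mark, had a summit in alphaKO only (17.8), and Ctcf (3.45), which organises chromatin loops, and 2 more genes (3.38 and 2.82) in WT only. Of 25 other homeobox genes, 8 in each list (32.0%) had a summit, again near the share of all genes; they were led by Dlx3 and Dlx4, which share a site with a fold of 31.1 in alphaKO and one of 41.7 in WT, Dlx1 and Dlx2 (26.4 and 27.8), Irx4 (26.8 and 18.1) and Irx5 (22.1 and 12.8). These folds belong to the strongest peak of each list, which need not be at the same place in both and may lie closer to another gene.

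Among cell type marker genes, 5 of 5 of the basal keratinocyte (Krt5, Krt14, Trp63, Col17a1 and Itga6) had a summit within 10 kb in alphaKO and in WT, as did 2 of 4 suprabasal markers in alphaKO and 3 in WT. The share of all protein-coding genes was 30.6% in alphaKO and 26.4% in WT. The small marker counts of this paragraph were not tested against it. Peaks do not measure transcripts, so they neither show which cell types were present nor say how much Hox RNA the cells held. Of 7 dermal fibroblast markers, 3 had a summit in alphaKO, Lum (fold 92.6), Dcn (11.9) and Twist2 (8.45), and 0 in WT, while Col1a1, Col1a2, Col3a1 and Pdgfra had none in either list. Of 4 melanocyte markers 1 had a summit in alphaKO, Dct (13.2), and 0 in WT, of 3 immune markers 0 in both, and of 3 endothelial markers 1 in both, Pecam1. Whether other cell types took part in the Hox peaks was not tested.

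The outermost peaks inside the windows were those near Halr1, with folds of 7.90 in alphaKO and 7.92 in WT. The peaks outside the windows but within 100 kb of the outer genes were in alphaKO 83.9 kb from Hoxc13 (fold 5.78), 94.4 kb from Hoxc4 (20.7) and on the low-coordinate side of the Hoxa window (9.02), and in WT 94.4 kb from Hoxc4 (5.64). Peak numbers in both lists ran without a gap through all 4 windows.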

How the data were processed

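Epidermis from dorsal skin was dissociated, cross-linked in 1% formaldehyde, sheared (fragments near 300 bp) and immunoprecipitated using antibody EPR570 against p63, per the labels' protocols. The submitters' processing notes name Bowtie2, MACS2 2.1.1.20160309 and the mm10 build; the sources used here do not give the caller's options, its control or how duplicates were handled. The deposited lists, 1 per library, hold for each peak its pileup (coverage signal), −log10 values of the p-value and q-value, and a fold enrichment (ratio), per the file headers.

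Local background was recovered as pileup plus 1, divided by fold, minus 1. Relative depth was its lowest value over the narrowest peak width; read totals are unknown. Partners shared at least 1 bp. Gene positions and promoters came from RefSeq tables of GRCm38.p6, the assembly that mm10 names; 22 of 39 Hox genes matched a promoter, and exons were not used. Genes with a summit inside or within 10 kb were counted. Hox genes, peaks of the windows and up to 6 genes of each other list by fold were named, except for some items that are not reported here. Shares have Wilson and counts exact Poisson 95% intervals for counting error only. Members, lists and tests were chosen with earlier results of these data known. Alternatives were other q, fold, list length, background, window, overlap and gene flank limits. The code was tested on simulated data. Software was Python 3.11.15 with pandas 2.3.3, NumPy 2.4.6, matplotlib 3.10.9 and SciPy 1.17.1.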

Additional observations from a re-analysis of the deposited data

How the results depend on the processing

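Of 54 recomputed values, 48 stayed within 1.5 times the count or within the interval of the share. Without a flank, the Hox windows held 6 alphaKO and 4 WT peaks. Counted within 50 kb, 26 Hox genes had a summit in alphaKO and 21 in WT, and within 1 kb 7 in alphaKO and 3 in WT. With a fold of at least 5, both sites listed in WT alone dropped out, and 100% of the remaining 5 WT peaks had an alphaKO partner. Counts of peaks or genes cannot fall as a window or gene limit widens. At equal list lengths the windows held 7 peaks in each library, and 57.1% of them had a partner in either direction. With lists of that length, 9 Hox genes in alphaKO and 7 in WT had a summit within 10 kb. Requiring −log10 q of at least 5 or at least 10, or leaving out places with a background above 50, changed none of the 6 values recomputed for each. None of these limits could remove a Hox peak, so these unchanged values, which are among the 48, are no sign of robustness. The same holds for the alphaKO counts at a fold of at least 5, because the smallest alphaKO Hox fold was 7.55. It also holds for the WT counts at equal list lengths, because only the longer alphaKO list was cut. The intervals of the shares were wide, so staying within them is a weak criterion. The smallest −log10 q of the Hox peaks was 33.4 in alphaKO and 16.3 in WT. Their highest background was 9.59 in alphaKO and 14.5 in WT. No paired analysis was possible because each genotype had 1 ChIP library and no test was made. Precision is limited by the small number of peaks and by unknown read totals.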
